A study of Danio rerio with 11 samples.

Results

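RNA of whole zebrafish brains was compared between libraries that bear the number 3 and libraries that bear the number 1 in their sample descriptions, within each of 4 genotypes. The 8 libraries used, 4 with each number, are part of 11. The other 3, numbered 2, exist in mutants only and are set beside the results. All fish came from the mpeg1-GFP line on a TLF x AB background and were aged about 8 months. In that line the promoter of a macrophage gene drives GFP. The control was wild type for both receptor genes, the single mutant was csf1ra-/-, the csf1rb-heterozygous mutant was csf1ra-/-;b+/-, and the double mutant was csf1ra-/-;b-/-. Zebrafish have a pair of genes, csf1ra and csf1rb, for the colony-stimulating factor 1 receptor, on which microglia depend. The labels give neither the mutant alleles nor what a number stands for (a day, a clutch, an hour of sampling or a processing batch), and they do not say that libraries are separate fish. Each genotype has 1 library of each number. p-values therefore rest on how far the differences of the 4 genotype pairs spread, and that spread may be technical. The test also draws each gene's spread (3 residual degrees of freedom) toward that of genes at like levels (5.67 prior degrees of freedom). The control library numbered 3 in its description is numbered 2 in its title, so the named calls that are lost without the control pair are listed. Per the labels' protocols, the fish were killed in iced water, and the dissected brains lay in trypsin on ice for 2 h before freezing.

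Gene programmes that are known to move within minutes to hours in a brain were read in the comparison. The circadian clock is a loop in which Clock and Bmal (arntl) proteins switch on period, cryptochrome and Rev-erb (nr1d) genes, whose products then repress them, so that the levels of these RNAs depend on the hour. In zebrafish most tissues hold such a clock and light resets it directly. Cortisol, released by the stress axis and rising and falling over the day, enters cells and binds the glucocorticoid receptor, which switches on a set of genes that includes klf9, fkbp5 and tsc22d3. Immediate early genes such as egr1, fosab (c-fos) and npas4a are transcribed within minutes of neuronal firing or of cell stress, without new protein being made. The hour of sampling and the light are not among the labels. Of the time from capture to freezing the labels give the 2 h in trypsin only. The part of each in the differences below was not tested.

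The libraries held 12.8 to 15.3 M reads, so 1 CPM (a read per 1e6 reads of a library, as scaled by the authors) stood for 12.3 to 15.7 reads. csf1ra had 9.66 and 7.33 CPM in the control libraries and 0 to 5.10 in the mutants, and the single mutant library numbered 3, at 5.10, was the highest of the mutants. Summed over 33 microglia and macrophage genes, that library reached 896 CPM, where the controls had 1380 and 829 and the other mutant libraries 355 to 665. Fewer cells of a type and less RNA per cell cannot be told apart in whole brains. This library thus lay nearer to the controls than the other mutants did, and whether the fish carried the labelled genotype was not tested. Of the same 33 genes 0 were called between the numbers (median difference -0.004 log2), and csf1ra (0.28, SE 0.27) and csf1rb (-0.26, SE 0.15) were not called. That median joins pairs that went apart. The median of the 33 genes was -0.82 in the control pair, 0.46 in single, -0.13 in csf1rb-heterozygous and 0.48 in double mutants. The 3 libraries numbered 2 stood apart from the other 8 on principal component 1, which held 26.9% of the variance, at 19.1 to 39.7 against -30.9 to 6.87.

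In the number 3 libraries 82 genes were higher and 10 were lower than in the number 1 libraries, of 16536 tested (0.496% and 0.0605%, or 0.556% in both directions). Higher in number 3 were clock repressors (nr1d2a, nr1d1, ciarta, per2), the nfil3 genes, genes of the glucocorticoid response (klf9, fkbp5, nfkbiab, tsc22d3), and 1 group of immediate early genes (nr4a3, csrnp1a, fosb). Another group of immediate early genes (egr4, egr1, fosab, ier2) was lower, as were per3 and the collagen chaperone gene serpinh1b. A gene was called at a Benjamini-Hochberg adjusted p under 0.05 in limma's moderated test on log2(CPM + 1), with the genotype as a block. All adjusted p-values below are from that test. Differences are on the log2(CPM + 1) scale, which understates those of genes with few reads, and are number 3 minus number 1.

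Called differences ran from 0.42 to 2.4 upward and down to -1.51, with medians of 0.84 and -0.97, against a median of 3.05e-05 over all genes. Of the 92 genes 33 differed by at least 1 log2 unit, 29 of them upward. By genotype pair, the median of the 82 higher genes was 0.860 in control, 0.826 in single mutants, 0.794 in csf1rb-heterozygous mutants and 0.828 in double mutants. The median of the 10 lower genes was -0.977, -1.40, -0.771 and -0.627 in the same order. The fit favours genes with like differences in the 4 pairs, so these medians describe the choice of genes and test nothing. All 4 number 3 libraries lay above all 4 number 1 libraries for 69 of them, where 2.00% of all genes did so, and below for 9 of the 10 lower genes, where 2.05% of all genes did so. The called genes were chosen on these same libraries, so these counts describe them only. Over all genes the differences of 2 pairs had a Pearson correlation of 0.0239 to 0.21, which describes genes and not independent replicates. Without the pair that holds the single mutant library numbered 3, 70 genes were called, 58 of the 92 among them. Without the control pair 45 were called (42 of the 92), and without the csf1rb-heterozygous pair 32 (31 of the 92). Of the 92 genes 30 were called in all 4 of the fits that leave out 1 pair. Among genes named below, the calls lost without the control pair were those of the clock and rhythm genes per2, nocta and usp2b, of pdk2a, cebpd and hsd11b2, of fosab, ier2, fosb and nab2, of serpinh1b and pfkfb4b, and of osr1 and flrt2. The genes in no list that lost their call there were slc16a6b, slc16a9a, slc16a9b, ucp2, arg2, pik3ip1, spry4, etv5a, errfi1b, pim3, plk2b, sik2b, snrkb, trib1, rgs5b, rgs16, hrh3, efna1a, inhbab and kdm6ba. Their adjusted p in that fit ran from 0.0522 for rgs5b to 0.204 for errfi1b.

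**Figure D1:**
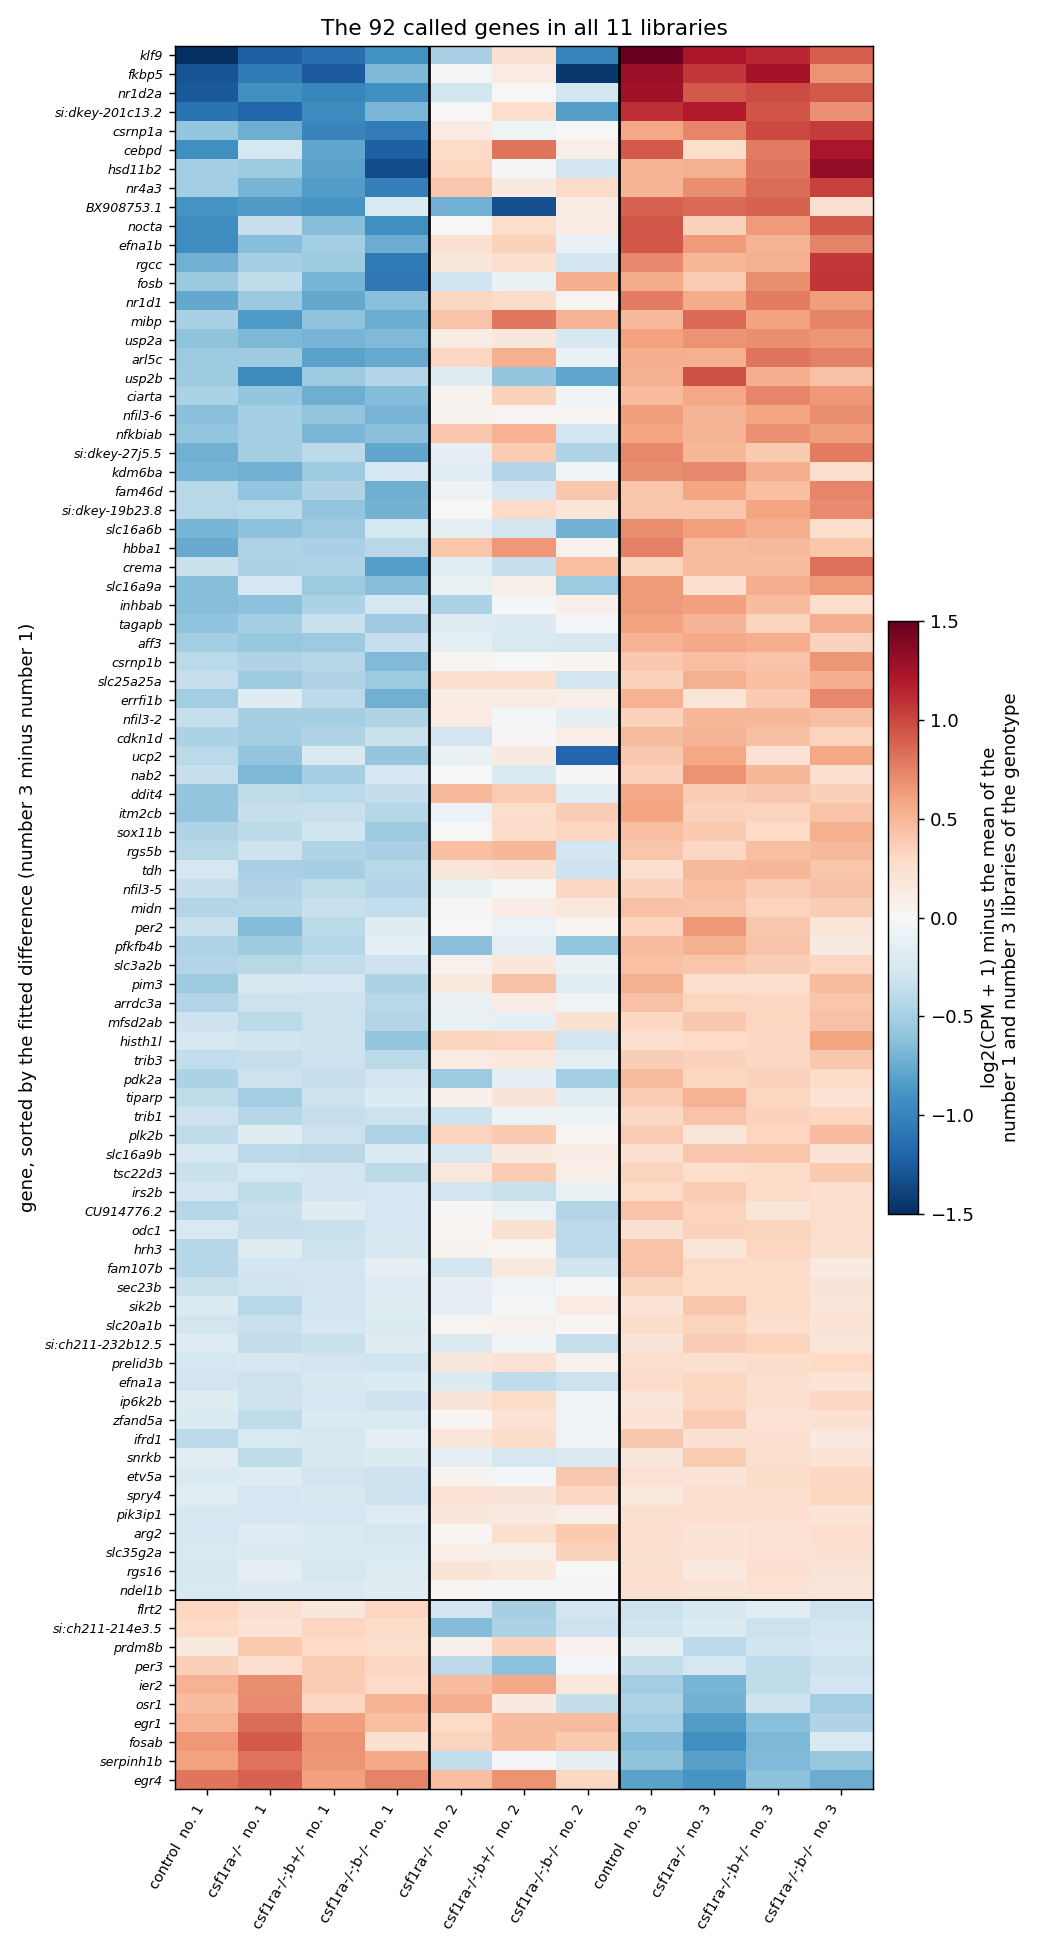
Each of the 92 called genes (rows, sorted by the fitted difference) in each of the 11 libraries (columns, grouped by number). Colour is log2(CPM + 1) minus the mean of the number 1 and number 3 libraries of the same genotype, cut off at 1.5 in either direction. The number 3 block is red and the number 1 block blue for the 82 higher genes and the reverse for the 10 lower ones, which is how they were chosen. The mutant libraries numbered 2, which were not in the fit, are pale for most of the higher genes and near the number 1 side for egr1, egr4, fosab and ier2. Colour is centred between numbers 1 and 3, and the genes were chosen for a difference between these. Pale number 2 libraries are thus likely after such a choice and test nothing.

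Clock genes gave some of the steepest differences. All lists were chosen with earlier results of these data known. Here and below, a count of calls in a list, beside the share of all genes, describes the list and tests nothing. Of 37 measured core clock genes 4 were higher and 1 was lower, where 0.496% and 0.0605% of all genes were. The list median was 0.06. Without the mean-variance trend 3 were higher and 0 lower, without the genotype block 2 were higher and 1 lower, and without the csf1rb-heterozygous pair 2 were higher and 0 lower. In every list of values below, the genotypes follow in the order in which they were introduced, from control to double mutant. nr1d2a, which encodes a Rev-erb nuclear receptor that represses Bmal transcription, had 38.7, 72.3, 41.1 and 44.3 CPM in the number 1 libraries and 226, 261, 161 and 161 in the number 3 libraries. Every number 3 library was thus above every number 1 library. The means were 49.1 ± 15.6 and 202 ± 49.8 CPM (SD, n = 4), and the fitted difference was 2.04 (SE 0.11, adjusted p = 0.000294). nr1d1, the other Rev-erb gene that was called, had 5.26, 11.4, 8.63 and 8.95 CPM against 17.2, 25.6, 26.9 and 22.6 (1.36, SE 0.11, adjusted p = 0.00181). The control was the lowest library in both of its groups, and the 2 groups did not overlap.

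ciarta encodes a repressor of the Clock-Bmal dimer. It was a gene of low level, at 2.69, 3.49, 1.88 and 2.35 CPM in number 1 and 6.09, 9.03, 7.0 and 7.23 in number 3 (1.22, SE 0.15, adjusted p = 0.01). Its copy ciartb missed the threshold with groups that did not overlap either (at most 5.84 CPM in number 1 and at least 7.87 in number 3, 0.76, SE 0.13, adjusted p = 0.0502). per2, a period gene that light induces directly in zebrafish, had 106, 86.3, 105 and 112 CPM in number 1 and 169, 213, 184 and 146 in number 3 (0.79, SE 0.13, adjusted p = 0.0366). Its rise was smallest in the double mutant pair, at 0.37, and largest in the single mutant pair, at 1.29, and the call was lost in 3 of the 4 fits that leave out a pair (highest adjusted p = 0.213). per3 was the core clock gene that was lower. Its number 1 libraries held 63.2, 72.6, 70.7 and 69.3 CPM and its number 3 libraries 38.0, 51.0, 41.0 and 44.8, with all number 3 libraries below all number 1 libraries (-0.65, SE 0.07, adjusted p = 0.00614). The period genes thus differed in opposite directions, per2 upward and per3 downward, while per1a (0.62, SE 0.18, adjusted p = 0.309) and per1b (0.33, SE 0.09, adjusted p = 0.234) were not called.

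Activators of the loop gave small values. arntl1a, a Bmal gene, had 73.2 to 89.3 CPM in number 1 and 67.3 to 93.7 in number 3, and the groups overlapped (0.11, SE 0.09, adjusted p = 0.741). clocka had 25.0 to 26.8 CPM in number 1 and 27.0 to 28.4 in number 3 (0.09, SE 0.08, adjusted p = 0.771). The Rev-erb related genes nr1d4a (0.60, adjusted p = 0.158) and nr1d4b (0.63, adjusted p = 0.0823) lay above 0 with groups that did not overlap, and were not called. bhlhe40, a repressor of the loop, lay at 414 to 453 against 357 to 403 CPM (-0.19, SE 0.06, adjusted p = 0.372), and the cryptochrome gene cry1ba was at 526 to 708 against 494 to 627 (-0.19, SE 0.07, adjusted p = 0.445).

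Among 10 genes of the bZIP factors that pass clock time on to D-box elements, 3 were higher and 0 lower, where 0.496% and 0.0605% of all genes were. Without the mean-variance trend, or without the genotype block, 1 was higher. The 3 were nfil3 genes, which encode repressors at these elements. nfil3-6 had 86.6, 146, 97.9 and 71.1 CPM in number 1 and 208, 295, 224 and 189 in number 3 (1.21, SE 0.08, adjusted p = 0.000306), with differences of 1.01 to 1.40 in the 4 pairs. nfil3-2 rose from 44.7 ± 5.45 to 84.9 ± 16.5 CPM (0.90, SE 0.08, adjusted p = 0.00181) and nfil3-5, the most abundant in CPM, from 289.7 ± 26.8 to 508 ± 50.4 (0.81, SE 0.07, adjusted p = 0.00179). The activators of the same elements were not called, among them tefa (-0.15, SE 0.09, adjusted p = 0.661) and hlfb (0.47, SE 0.13, adjusted p = 0.278). Of the 10 genes 9 lay above 0, with a list median of 0.10, and tefa was the one below. nfil3-6, nfil3-2 and nfil3-5 stayed called whichever pair was left out.

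A further 3 genes known for daily rhythms in mouse stood outside the lists. They were picked from the called genes, so that all 3 were called describes this choice only. usp2a, which encodes a ubiquitin protease, had the smallest p of all genes. Its libraries held 61.8, 87.9, 62.5 and 63.2 CPM in number 1 and 144, 225, 167 and 159 in number 3 (1.32, SE 0.06, adjusted p = 0.000203). The 4 pairs gave 1.21 to 1.41, so the difference was close to the same in each genotype although the single mutants were highest in both groups. Its copy usp2b rose from 15.6 ± 1.1 to 39.1 ± 11.7 CPM (1.24, SE 0.16, adjusted p = 0.0113), and nocta, a nocturnin gene, from 14.3 ± 8.81 to 36.2 ± 5.59 (1.42, SE 0.18, adjusted p = 0.0117). Of 10 genes of the zebrafish response to light and of DNA repair 0 were called, and cry5, a photolyase gene, was at 2.30 to 3.17 against 1.97 to 3.05 CPM (-0.17, SE 0.18, adjusted p = 0.809).

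**Figure D2:**
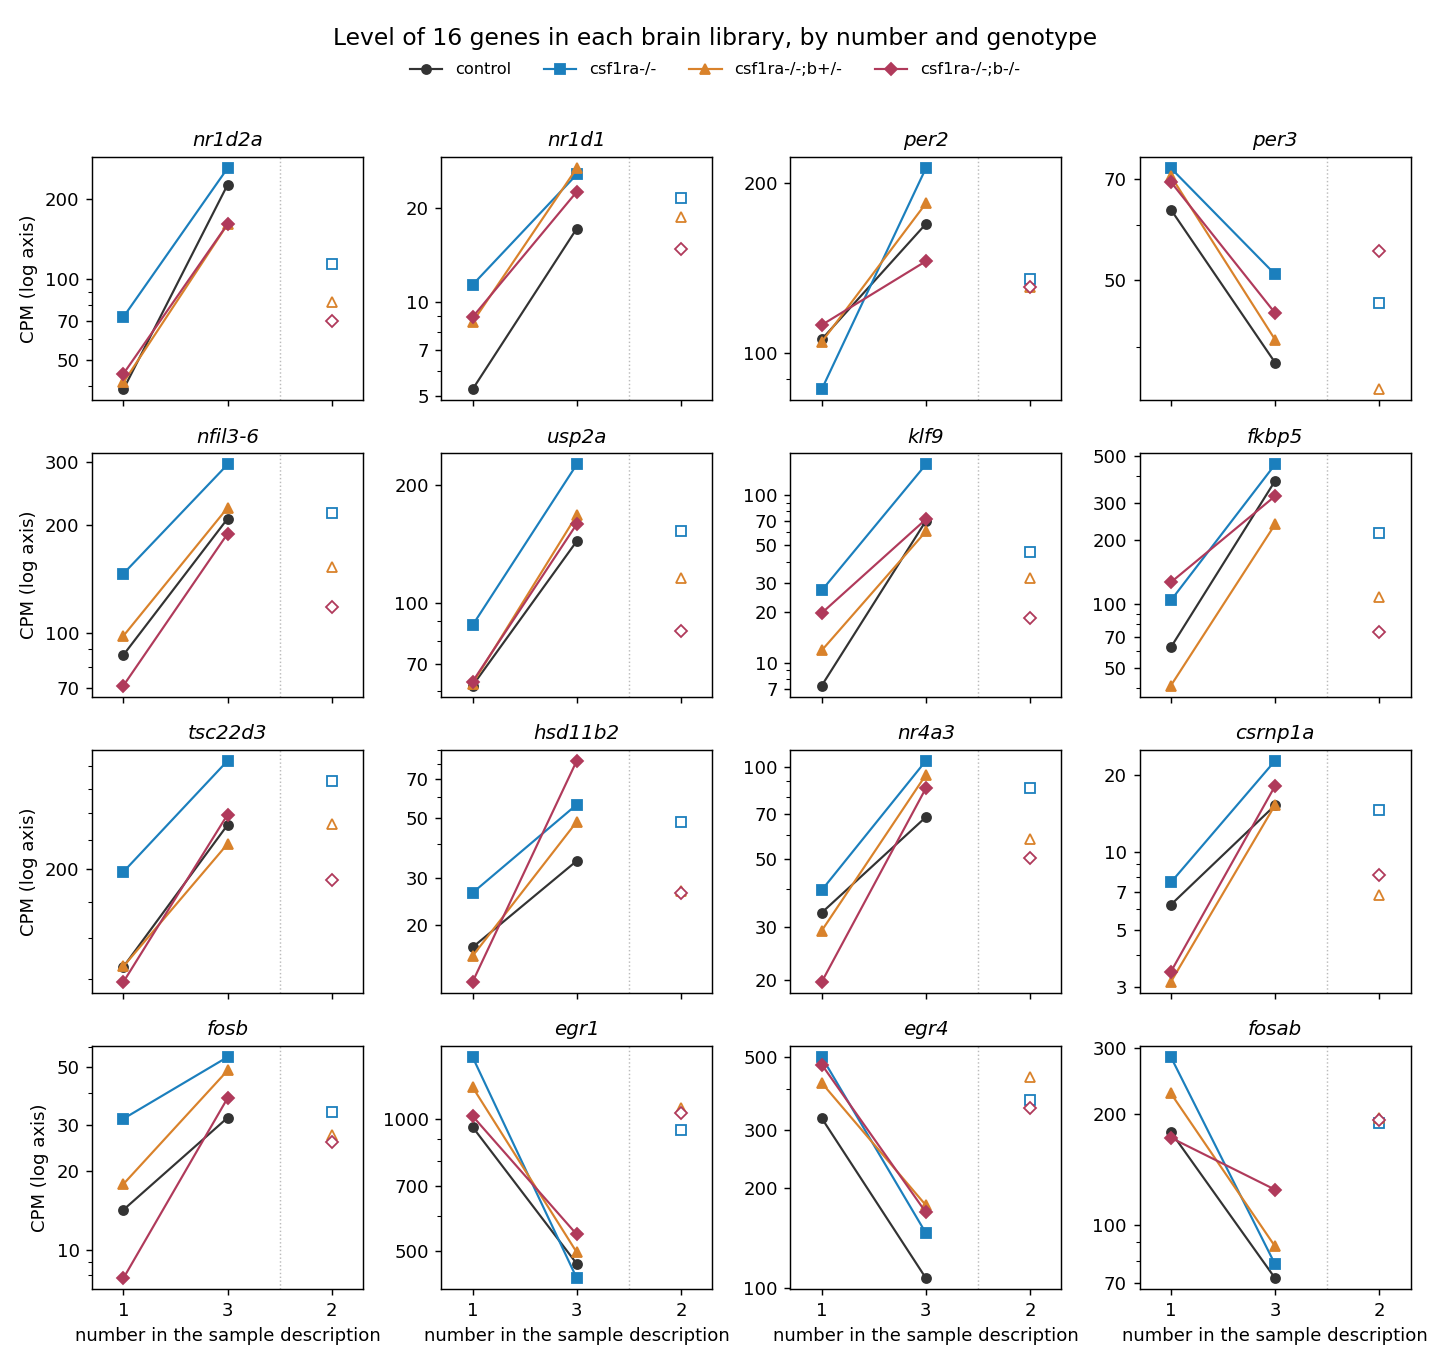
CPM on a log axis of 16 genes in each library, by the number in the sample description. Filled symbols joined by a line are the number 1 and number 3 libraries of 1 genotype, and open symbols to the right of the dotted line are the mutant libraries numbered 2. Lines are nearly parallel for nfil3-6, usp2a and egr4, and the number 3 libraries lie above all number 1 libraries in 12 panels and below them in those of per3, egr1, egr4 and fosab.

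Among the lists, that of the glucocorticoid response had the most higher genes. That list, too, was chosen with earlier results of these data known, so its counts describe it and test nothing. Of its 24 measured genes 8 were higher and 0 lower, where 0.496% and 0.0605% of all genes were. In all 4 pairs 14 were higher, where 1461 of 16536 genes were, and the median was 0.30. klf9, a Krüppel-like factor that glucocorticoid and thyroid hormone induce, had the largest difference of all called genes. It had 7.29, 26.9, 11.8 and 19.8 CPM in number 1 and 70.0, 152, 60.6 and 71.6 in number 3 (2.4, SE 0.17, adjusted p = 0.000884), a ratio of means of 5.38. fkbp5, a co-chaperone that lowers the hormone affinity of the receptor and is itself a target of it, had 62.4, 104, 41.1 and 126 CPM against 380, 455, 237 and 322 (2.14, SE 0.18, adjusted p = 0.00179). The double mutant pair gave the smallest difference of fkbp5, at 1.34, and its number 1 library was the highest of that number. Neither gene's groups overlapped, and both stayed called whichever pair was left out.

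nfkbiab, whose product IκBα holds NF-κB in the cytoplasm, had 55.9, 88.1, 56.7 and 76.1 CPM in number 1 and 129, 178, 147 and 183 in number 3 (1.21, SE 0.07, adjusted p = 0.000306). tsc22d3, the gene of the glucocorticoid-induced leucine zipper, rose from 157 ± 27.7 to 243 ± 29.2 CPM (0.63, SE 0.07, adjusted p = 0.00448), and ddit4, which encodes an inhibitor of the growth kinase complex mTORC1, from 25.2 ± 6.41 to 45.9 ± 7.14 (0.86, SE 0.09, adjusted p = 0.00532). These 3 genes, too, stayed called whichever pair was left out. irs2b, an insulin receptor substrate gene, rose from 138 ± 15.8 to 212 ± 41.1 CPM (0.61, SE 0.07, adjusted p = 0.00532), and pdk2a, a pyruvate dehydrogenase kinase gene, from 24.5 ± 4.25 to 40.7 ± 5.82 (0.71, SE 0.09, adjusted p = 0.0101). cebpd, a transcription factor gene that inflammation induces as well, rose from a mean of 19.2 to 54.6 CPM (1.60, SE 0.25, adjusted p = 0.0316), but its number 1 libraries reached 37.6 and 1 of the 4 fits with a pair left out kept the call.

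Other genes of the response were not called, and not all of the list lay above 0 (18 of 24 genes did). sgk1, a kinase gene, had 154 to 184 CPM in number 1 and 179 to 219 in number 3 (0.28, SE 0.06, adjusted p = 0.144), and irs2a had 38.8 to 60 against 57.0 to 67.0 (0.36, SE 0.08, adjusted p = 0.171). The list had 2 calls without the mean-variance trend and 2 without the genotype block, 5 without the csf1rb-heterozygous pair, 6 without the control pair and 8 without the single mutant pair.

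Of 12 measured genes of the stress axis hsd11b2 was the one called, where 0.556% of all genes were called. It encodes the enzyme that turns cortisol into inactive cortisone. Its libraries held 16.5, 26.4, 15.3 and 12.25 CPM in number 1 and 34.7, 56.4, 48.6 and 82.2 in number 3 (1.59, SE 0.23, adjusted p = 0.0248). Of the fits that leave out a pair, those without the control pair and without the csf1rb-heterozygous pair lost the call (highest adjusted p = 0.135). The call of hsd11b2 was also lost without the mean-variance trend and without the genotype block. crhb, the gene of corticotropin-releasing hormone, had 35.1 to 44.3 CPM in number 1 and 31.3 to 39.9 in number 3 (-0.06, SE 0.09, adjusted p = 0.863). The glucocorticoid receptor gene nr3c1 was at 119 to 133 against 113 to 127 CPM (-0.07, SE 0.07, adjusted p = 0.774), and pomca, which encodes the precursor of ACTH in the pituitary, was at 3.81 to 5.27 against 3.42 to 7.78 (0.22, SE 0.21, adjusted p = 0.78). The groups overlapped for all 3 of these genes.

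**Figure D3:**
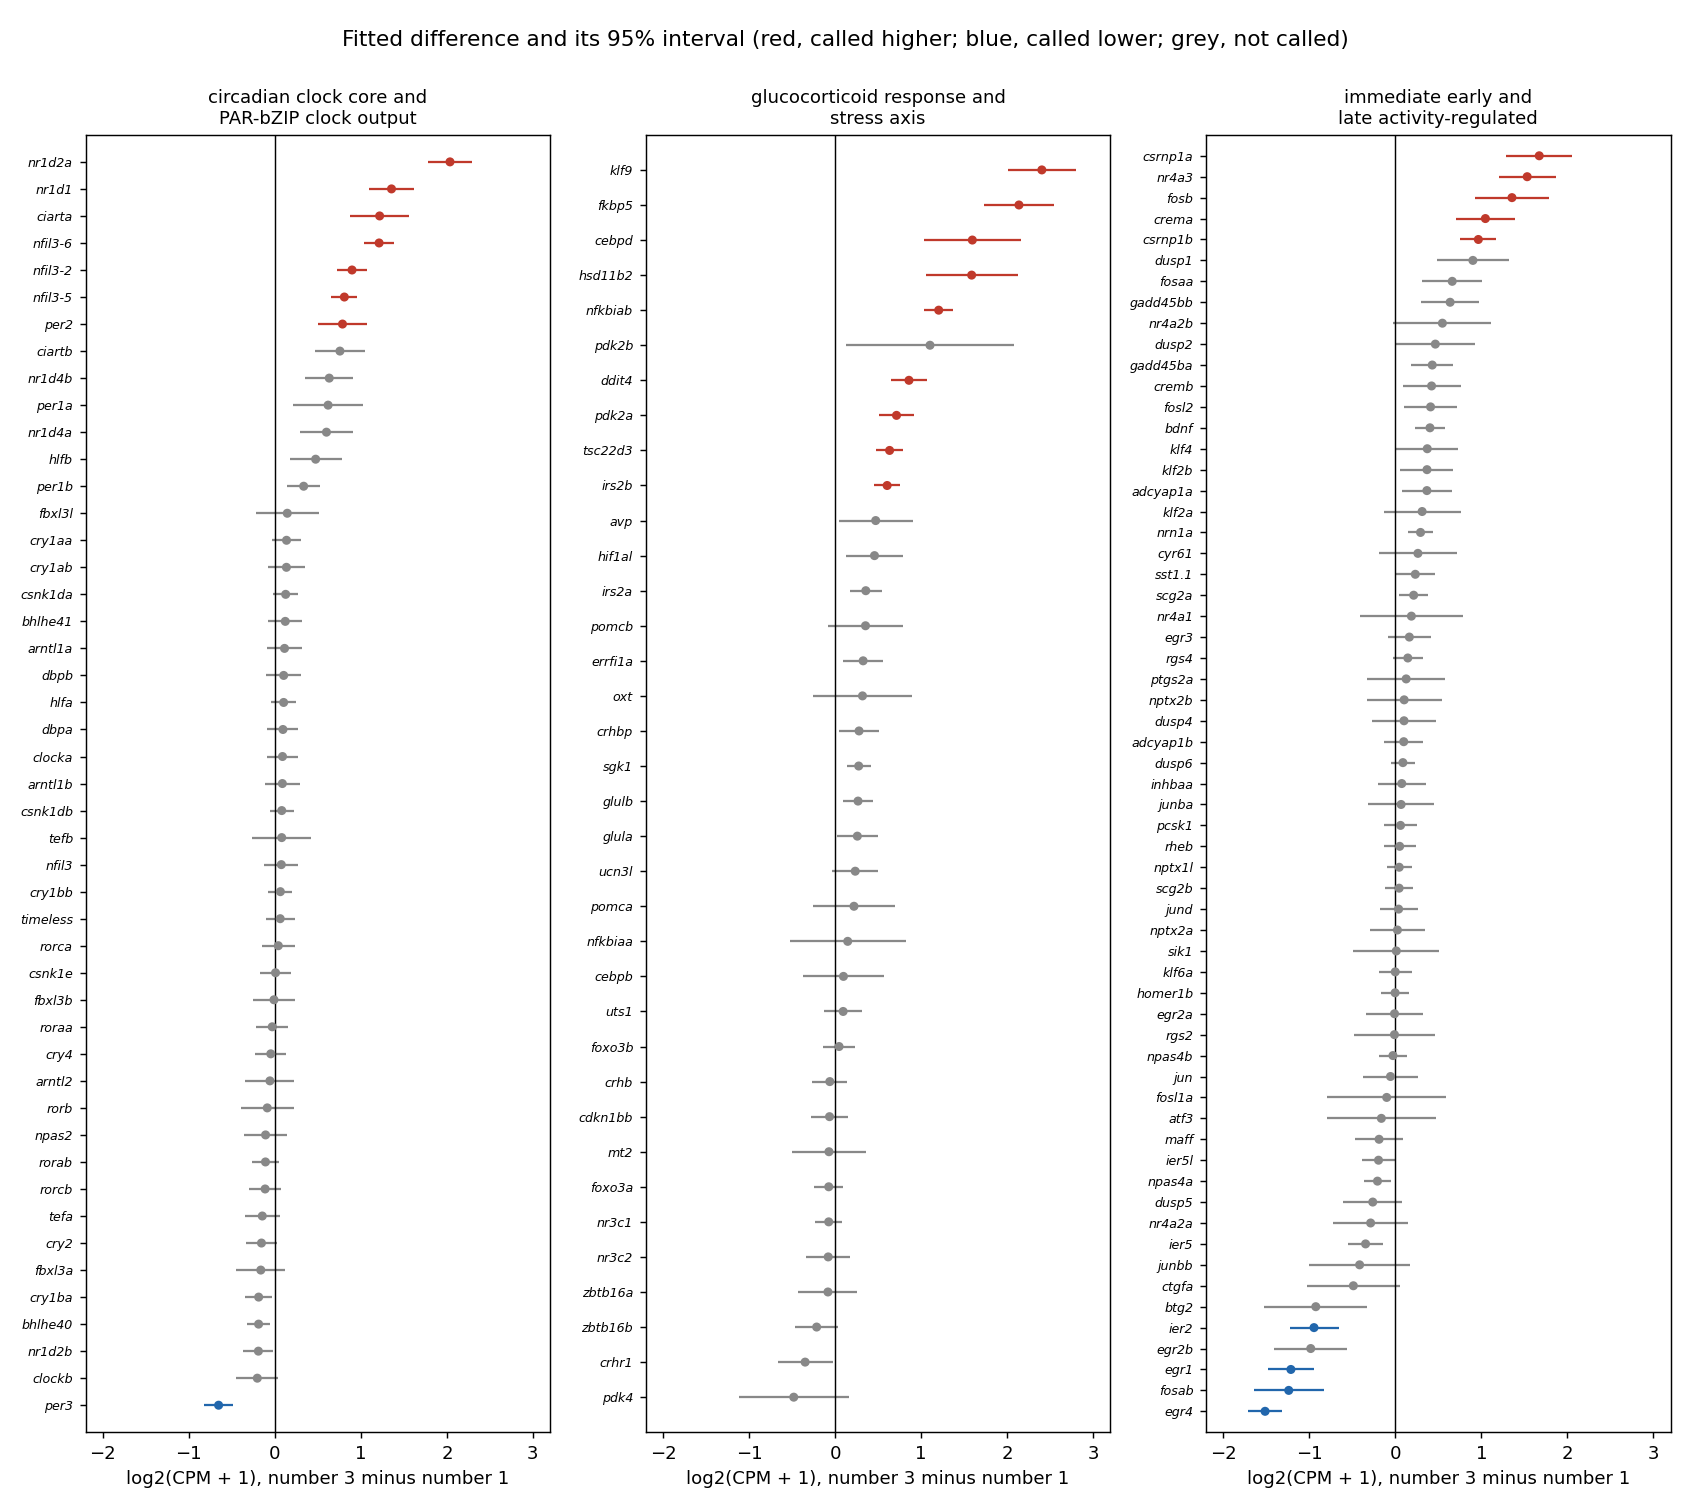
Fitted difference (number 3 minus number 1, log2(CPM + 1)) and its 95% interval for every measured gene of 6 lists in 3 panels, sorted within each panel. Red marks genes called higher, blue genes called lower and grey genes not called. Most clock genes lie near 0 with a short tail to the right and per3 alone called to the left. The glucocorticoid and stress axis panel has called genes to the right only, and the immediate early panel has called genes at both ends.

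Immediate early genes differed in both directions. Of 41 measured genes 4 were higher and 4 were lower, where 0.496% and 0.0605% of all genes were, with a median of 0.04. Without the mean-variance trend 0 were higher and 1 was lower, and without the genotype block 2 were higher and 2 lower. The 4 lower genes include the widely used markers of neuronal activity. egr1, a zinc finger factor gene, was the most abundant of them in CPM, at 957, 1381, 1179 and 1013 in number 1 and 467, 433, 495 and 544 in number 3 (-1.21, SE 0.12, adjusted p = 0.00296). egr4, of the same family, had 326, 498, 416 and 473 CPM against 107, 147, 178 and 169 (-1.51, SE 0.09, adjusted p = 0.000294), the largest fall among called genes. The number 3 means of egr1 and egr4 were 0.428 and 0.351 times their number 1 means, the groups did not overlap, and both stayed called whichever pair was left out.

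fosab, the c-fos gene, had 178, 284, 226 and 172 CPM in number 1 and 72.1, 78.6, 87.8 and 125 in number 3 (-1.24, SE 0.18, adjusted p = 0.022). The double mutant pair gave the smallest fall of fosab, of -0.46, and the single mutant pair the largest, of -1.84. ier2, which encodes a nuclear protein induced by growth factors, had 36.9, 66.8, 45.9 and 57.3 CPM against 17.4, 25.0, 26.5 and 38.0 (-0.94, SE 0.13, adjusted p = 0.0133), and its groups overlapped by the double mutant library numbered 3. Both calls were lost in 2 of the 4 fits that leave out a pair. egr2b (at most 14.5 CPM in number 3 and at least 16.7 in number 1, -0.98, SE 0.19, adjusted p = 0.078) and btg2, an antiproliferative gene (136 to 278 against 65.4 to 166 CPM, -0.92, SE 0.26, adjusted p = 0.297), were not called. npas4a, which responds to calcium entry in neurons, was above egr1 in CPM in each of these libraries. It gave a small difference, at 1040, 1502, 1324 and 1044 CPM against 856, 1242, 1218 and 942 (-0.21, SE 0.07, adjusted p = 0.413).

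The 4 higher immediate early genes were nr4a3, csrnp1a, csrnp1b and fosb. nr4a3, an orphan nuclear receptor gene, had 33.3, 39.5, 29.1 and 19.8 CPM in number 1 and 68.7, 105, 94.5 and 85.4 in number 3 (1.53, SE 0.14, adjusted p = 0.00255). csrnp1a and csrnp1b encode cysteine- and serine-rich nuclear proteins. The first had 6.24, 7.63, 3.13 and 3.43 CPM against 15.2, 22.6, 15.2 and 18.1 (1.67, SE 0.17, adjusted p = 0.0038), and the second rose from 68.5 ± 14.8 to 135 ± 27.6 CPM (0.97, SE 0.09, adjusted p = 0.00255). These 3 genes stayed called whichever pair was left out. fosb, which encodes a partner of Jun proteins like c-fos, had 14.3, 31.8, 17.9 and 7.81 CPM in number 1 and 32.1, 54.8, 48.6 and 38.1 in number 3 (1.36, SE 0.19, adjusted p = 0.0181), so fosb and fosab, both fos genes, differed in opposite directions. nr4a1, the relative of nr4a3, had 40.1 to 147 CPM in number 1 and 66.4 to 105 in number 3 (0.19, SE 0.26, adjusted p = 0.856). dusp1, a MAP kinase phosphatase gene that is also a glucocorticoid target in mammals, was at 15.7 to 28.5 against 19.7 to 59.4 CPM (0.90, SE 0.19, adjusted p = 0.11), and fosaa at 8.19 to 21.8 against 16 to 26.6 (0.66, SE 0.15, adjusted p = 0.177).

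Of 20 later activity-regulated genes, crema was higher and 0 were lower, where 0.496% and 0.0605% of all genes were, with 18 of 20 above 0 and a median of 0.10. crema is a CREM gene, whose mammalian counterpart gives rise to the rhythmic repressor ICER. It rose from 11.8 ± 3.77 to 24.5 ± 2.92 CPM (1.05, SE 0.15, adjusted p = 0.0223). In the same test its call was lost without the single mutant pair (adjusted p = 0.071) and without the csf1rb-heterozygous pair (adjusted p = 0.114). It was also lost without the genotype block and without the mean-variance trend. bdnf, the gene of a neurotrophin that activity induces over hours, was at 63.3 to 104 CPM in number 1 and 93.2 to 122 in number 3 (0.40, SE 0.08, adjusted p = 0.0793), with overlap. nrn1a, a neuritin gene, was at 77.3 to 87.5 against 91.2 to 107 CPM without overlap and was not called (0.29, SE 0.07, adjusted p = 0.149). nab2, a corepressor that EGR factors induce and that binds them, stood outside the lists and was higher while egr1 and egr4 were lower (15.4 ± 1.66 to 29.5 ± 6.21 CPM, 0.88, SE 0.14, adjusted p = 0.0316). This gene, too, was picked from the called genes.

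The lists of heat shock, chaperone and cold-induced genes gave few calls. Among 26 heat shock and chaperone genes serpinh1b was lower and 0 were higher, where 0.0605% and 0.496% of all genes were, with a median of 0.02. serpinh1b encodes Hsp47, the collagen chaperone of the endoplasmic reticulum, and had 8.74, 5.92, 4.73 and 4.76 CPM in number 1 against 3.24, 1.24, 1.3 and 1.61 in number 3 (-1.32, SE 0.16, adjusted p = 0.00944). These levels rest on few reads, and the gene was left out at a mean of at least 5 CPM. Its call was lost without the genotype block, without the control pair and without the csf1rb-heterozygous pair. The inducible heat shock gene hsp70l was at 2.19 to 2.96 against 0.874 to 2.24 CPM (-0.52, SE 0.20, adjusted p = 0.468), dnajb1b at 3.83 to 8.68 against 2.79 to 4.63 (-0.60, SE 0.14, adjusted p = 0.203), and the abundant hspa8 at 1318 to 1586 against 1352 to 1616 (0.05, SE 0.08, adjusted p = 0.877). Of 11 cold-induced RNA-binding genes 0 were called, and cirbpb had 1287 to 1502 CPM against 1449 to 1957 (0.20, SE 0.08, adjusted p = 0.508).

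Single genes were called in 2 further stress lists, where 0.556% of all genes were called. trib3, a pseudokinase gene of the unfolded protein response, rose from 19.0 ± 3.35 to 31.8 ± 5.0 CPM and was the only called gene of 23 (0.72, SE 0.08, adjusted p = 0.00716). pfkfb4b, which encodes an enzyme that controls glycolysis, rose from 45.4 ± 11.7 to 78.7 ± 20.5 CPM and was the only called gene of 30 of hypoxia and glycolysis (0.78, SE 0.12, adjusted p = 0.032). igfbp1a, an insulin-like growth factor binding protein gene that hypoxia and glucocorticoid induce, missed the threshold with 5.06 to 10.1 CPM in number 1 and 8.82 to 26.8 in number 3 (1.33, SE 0.24, adjusted p = 0.0563).

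Of the 92 called genes 61 are in none of the 46 lists. Of those named from here to the lower genes, all but mfsd2ab, efna1b and midn were named after their values were seen. Several encode carriers and enzymes of metabolism. slc16a6b (19.4 ± 4.32 to 43.8 ± 16.4 CPM, 1.06, adjusted p = 0.0108), slc16a9a (36.3 ± 17.8 to 71.7 ± 20.6, 1.03, adjusted p = 0.01) and slc16a9b (0.64, adjusted p = 0.0408) belong to the monocarboxylate transporter family. slc3a2b, the heavy chain of amino acid exchangers, rose from 154 ± 19.2 to 263 ± 43.1 CPM (0.77, SE 0.07, adjusted p = 0.00196). ucp2, a mitochondrial carrier gene, rose by 0.89 (adjusted p = 0.0427), slc25a25a, of the mitochondrial ATP carriers, by 0.94 (adjusted p = 0.0112), odc1, which encodes the first enzyme of polyamine synthesis, by 0.59 (adjusted p = 0.0112), arg2, an arginase gene, by 0.46 (adjusted p = 0.0135), and tdh, a threonine dehydrogenase gene, by 0.82 (adjusted p = 0.00532). mfsd2ab, a lipid transporter of the blood-brain barrier endothelium, rose from 62.1 ± 18.7 to 104 ± 32.5 CPM (0.74, SE 0.07, adjusted p = 0.00322). It was the only called gene of 26 of endothelium and mural cells, where 0.556% of all genes were called.

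Other called genes outside the lists encode signalling proteins, which were put side by side by role and not counted as a group. pik3ip1, an inhibitor of PI3 kinase, had 173 to 183 CPM in number 1 and 228 to 261 in number 3 (0.47, SE 0.06, adjusted p = 0.0111). spry4 and etv5a, known targets of FGF signalling, rose by 0.49 each (adjusted p = 0.032 and 0.0135), and errfi1b, the gene of an inhibitor of the EGF receptor, by 0.91 (adjusted p = 0.0427). cdkn1d, a gene of an inhibitor of cyclin-dependent kinases, rose from 89.9 ± 5.62 to 169 ± 22.8 CPM (0.89, SE 0.07, adjusted p = 0.00179) in all fits that leave out a pair. The kinase and pseudokinase genes pim3 (0.76, adjusted p = 0.0221), plk2b (0.68, adjusted p = 0.0135), sik2b (0.54, adjusted p = 0.0316), snrkb (0.50, adjusted p = 0.0427) and trib1 (0.71, adjusted p = 0.0345) were higher as well. Regulators of G protein signalling rgs5b (0.83, adjusted p = 0.00742) and rgs16 (0.42, adjusted p = 0.0315) and the histamine receptor gene hrh3 (0.59, adjusted p = 0.0316) rose too.

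Among signals between cells, efna1b and efna1a, genes of the membrane-bound ligand ephrin A1, rose by 1.41 (31.6 ± 9.45 to 84.9 ± 20.1 CPM, SE 0.12, adjusted p = 0.00196) and 0.53 (adjusted p = 0.0124), and inhbab, a gene of an activin subunit, by 1.00 (adjusted p = 0.0264). kdm6ba, which encodes a demethylase of histone H3 lysine 27, had 155, 165, 145 and 174 CPM in number 1 and 410, 448, 311 and 250 in number 3 (1.11, SE 0.14, adjusted p = 0.01). Its difference was 1.40 in the control pair and 0.52 in the double mutant pair, and 2 of the 4 fits with a pair left out kept the call. midn, which encodes a nuclear protein that carries immediate early factors to the proteasome in mammals, rose from 154 ± 21.4 to 268 ± 52.6 CPM (0.79, SE 0.07, adjusted p = 0.00179). sox11b, a transcription factor gene of young neurons, rose from 54.4 ± 12.7 to 97.5 ± 19.6 CPM (0.84, SE 0.09, adjusted p = 0.00393), while 0 of 21 proliferation genes were called.

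The lower genes beside those above were few. osr1, a zinc finger factor gene, had 7.75, 7.46, 6.82 and 9.27 CPM in number 1 against 3.63, 2.18, 4.09 and 4.02 in number 3 (-1.0, SE 0.16, adjusted p = 0.0379). prdm8b, of a family of histone methyltransferase-like factors, had 90.2 to 99.6 CPM against 55.3 to 78.2 (-0.55, SE 0.09, adjusted p = 0.0316). flrt2, which encodes an adhesion and guidance protein of neurons, had 34 to 42.7 CPM against 25.1 to 27.2 (-0.53, SE 0.08, adjusted p = 0.0366). A gene with a clone name was lower too. The groups of osr1, prdm8b and flrt2 did not overlap, and the calls of osr1 and flrt2 were lost in each of the 4 fits that leave out a pair.

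The mutant libraries numbered 2 were not used in the fit. Comparisons with them share the number 1 or number 3 libraries with the comparison above, so values are only set side by side. Called genes were chosen for a difference between numbers 1 and 3, so a library numbered 2 is likely to fall between these. Such a position thus tests nothing. In the same order of genotypes, without control, nr1d2a had 114, 82.2 and 69.8 CPM in number 2, usp2a had 152, 116 and 84.9, nfil3-6 had 216, 152 and 118, and nr4a3 had 85.7, 58.0 and 50.5. Each of these lay between the number 1 and number 3 library of its own genotype. klf9 (45.6, 31.9 and 18.3 CPM) and fkbp5 (215, 108 and 73.4) lay between them in single and csf1rb-heterozygous mutants and below the number 1 library in double mutants.

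per3 was at 46.3, 34.7 and 55.1 CPM in number 2, near its number 3 level, with a difference from number 1 of -0.66 and of number 3 from number 2 of 0.03 in mutants. flrt2 (24.2, 20.9 and 27.8) was near or below its number 3 level as well. The lower immediate early genes stood the other way. egr1 had 942, 1058 and 1029 CPM in number 2, egr4 had 369, 435 and 351, fosab had 189, 194 and 192, and ier2 had 57.1, 52.1 and 52.3, near their number 1 levels, and in mutants number 3 minus number 2 was -1.04 for egr1, -1.22 for egr4, -1.0 for fosab and -0.85 for ier2. Number 2 libraries were thus intermediate for nr1d2a, nearer to number 3 for per3, and nearer to number 1 for egr1 and egr4. clocka, at 25.0 to 28.4 CPM in all libraries numbered 1 and 3, had 12.7, 10.1 and 21.9 in number 2.

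Cell type markers were read for tissue that could differ between dissections. Of the 12 measured erythrocyte genes 11 lay above 0, with a median of 0.36, and the list summed to 237 to 478 CPM in number 1 and 354 to 735 in number 3. The globin gene hbba1 (ENSDARG00000089087) was the one called, at 30.5, 136, 82.3 and 139 CPM against 89.1, 259.7, 161 and 248 (1.06, SE 0.11, adjusted p = 0.00393). Without the mean-variance trend, or without the genotype block, 0 genes of the list were called. Of all genes 0.556% were called. Globin genes are near-identical copies, so how reads were split between them is uncertain. hbaa2 (0.68, SE 0.15, adjusted p = 0.135) and hbba2 (0.90, SE 0.21, adjusted p = 0.176) were not called. The sums of the list overlapped between the numbers, but within each genotype pair the sum was higher in number 3. By pair it went from 237 to 354, 478 to 735, 304 to 393 and 362 to 522 CPM. The part of blood in the calls was not tested.

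Markers of hindbrain and spinal cord moved the other way. Of 26 genes, mostly Hox genes, 24 lay below 0, with a median of -0.28 and 0 called, and the list summed to 278 to 351 CPM in number 1 and 249 to 325 in number 3. Within each genotype pair the sum was lower in number 3 (351 to 304, 278 to 249, 343 to 291 and 344 to 325 CPM). hoxb5a was at 15.9 to 24.4 against 11.3 to 16.6 CPM (-0.45, SE 0.12, adjusted p = 0.264), and isl1, of motor neurons, at 19.6 to 27.5 against 14.5 to 19.7 (-0.44, SE 0.09, adjusted p = 0.091). The part of the cut at the spinal cord in the other results was not tested. Retina and pineal genes, 0 of 30 called, had pair medians of -0.25, 1.48, -1.17 and 0.61, and so did not follow the number. Medians of pan-neuronal genes (0.04), excitatory neurons (-0.003), inhibitory neurons (-0.03), radial glia (-0.0003), and oligodendrocytes and myelin (0.02) were near 0, each with 0 genes called. In each of these lists the pair medians lay on both sides of 0. They were 0.23, -0.22, -0.19 and 0.09 for radial glia, and -0.11, 0.14, -0.11 and 0.28 for oligodendrocytes and myelin. A list median near 0 thus does not mean that each pair was unchanged. Other lists with 0 called genes lay farther from 0. Among them were epidermis and muscle at 0.27 and olfactory system at 0.16 (5 of 5 genes above 0). Midbrain and tectum lay at -0.11 (4 of 14 above 0) and forebrain at -0.10 (6 of 21 above 0). Pituitary hormones (0.22), ependyma and cilia (0.14) and neutrophils (-0.13) did so too. Pair medians were 0.66, -0.49, 0.34 and 0.14 for epidermis and muscle, whose median was 0.003 at a mean of at least 5 CPM. They were 0.04, -0.09, -0.21 and -0.16 for midbrain and tectum, and 0.12, -0.36, -0.25 and -0.06 for forebrain. Those of the olfactory system were 0.42, 0.18, 0.15 and 0.05. Of 18 genes of acute cytokine and NF-κB signalling, nfkbiab and cebpd, named above, were the 2 called, where 0.556% of all genes were called.

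**Figure D4:**
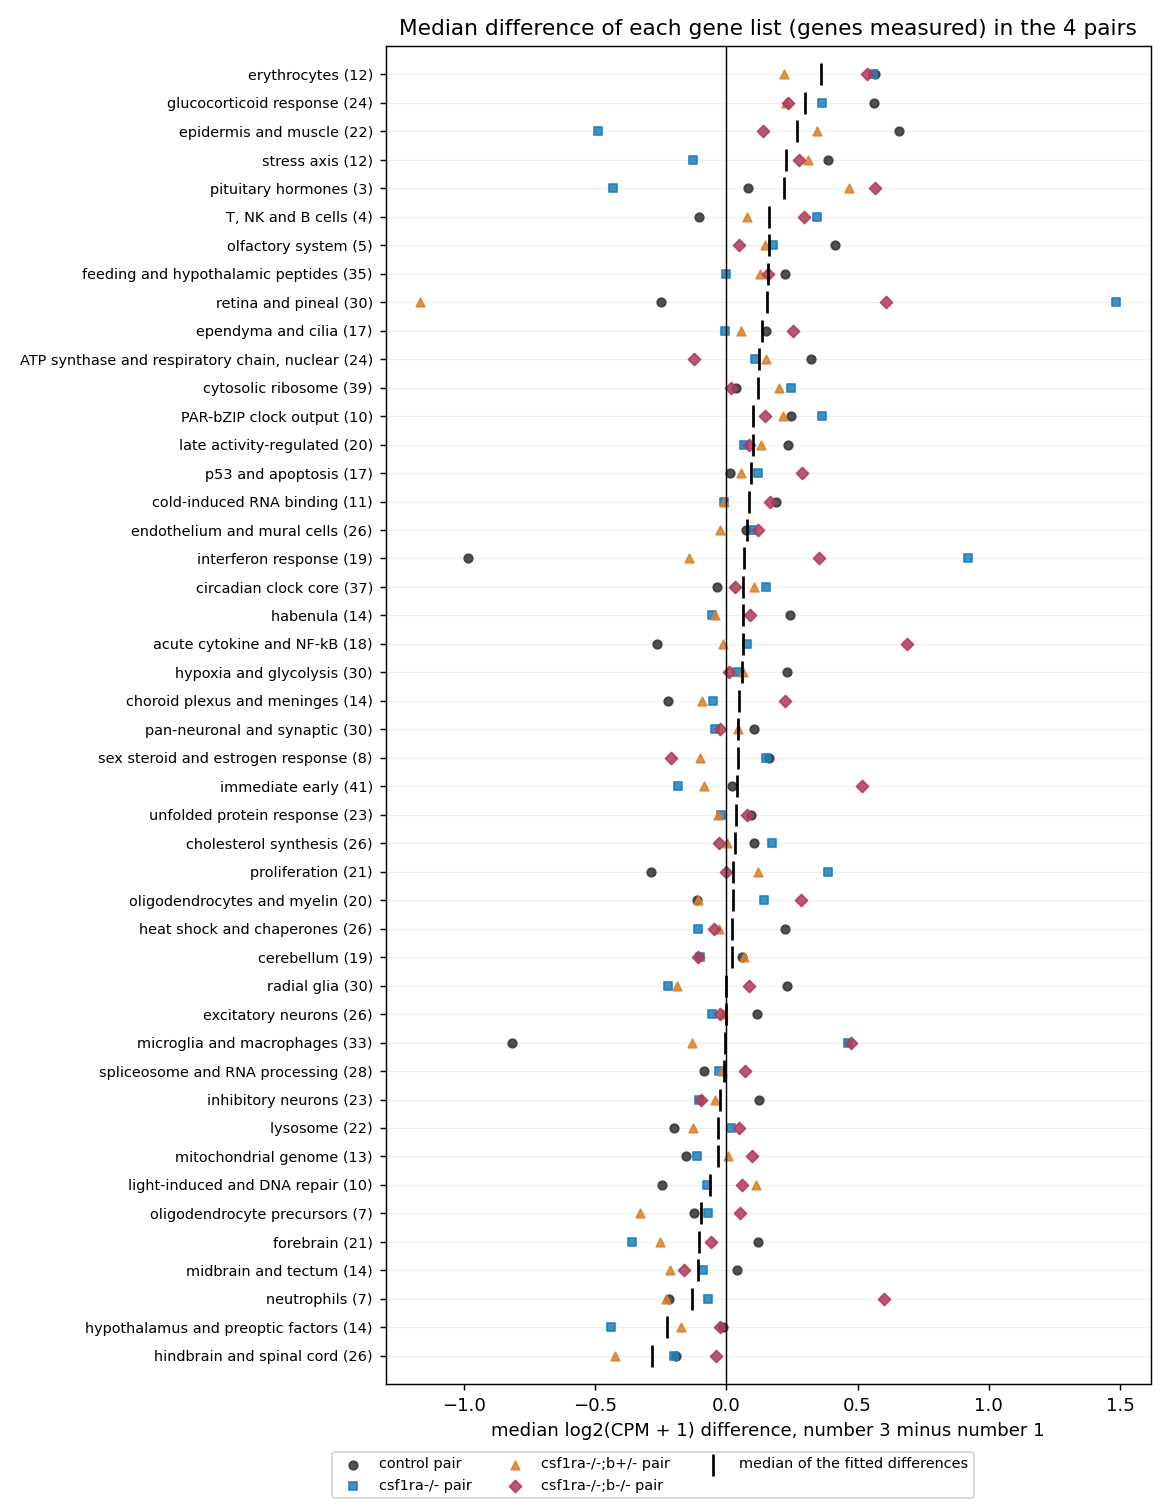
Median difference (number 3 minus number 1, log2(CPM + 1)) of each list with its number of measured genes in parentheses, in each of the 4 genotype pairs (symbols) and for the fitted differences (black bars). The glucocorticoid and erythrocyte lists lie above 0 in all 4 pairs, as do several others, among them the bZIP clock output, late activity-regulated and cytosolic ribosome lists. The hindbrain and spinal cord list and the hypothalamus and preoptic list lie below 0 in all 4. The retina, interferon and microglia lists, among others, spread to both sides.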

How the data were processed

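The deposited values are a signal in CPM that the authors scaled per library, for 16536 genes, per the file headers. HISAT2, edgeR and GRCz10 were used, per the submitters' processing notes. Their roles and versions, the strand and how shared reads were treated are not given here by any source used. All values were whole reads within 0.001 reads, so the reads were recovered. The table was filtered before deposit: every gene exceeded 1 CPM in at least 3 libraries. A count test had been planned for counts only, so the 8 libraries were fitted on log2(CPM + 1) with limma 3.58.1 (R 4.3.3) and its mean-variance trend, with genotype as a block and number as the factor tested (3 residual and 5.67 prior degrees of freedom), two-sided, over all genes. edgeR 4.0.16 (quasi-likelihood) and DESeq2 1.42.0 on the recovered reads were alternatives. An exact sign-flip permutation test over 4 pairs cannot go below p = 0.125.

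Of 1155 symbols in 46 gene lists 931 matched. The comparison, members and lists were chosen with earlier results of these data known. The rule for named genes took up to 12 called genes of largest difference (mean of at least 2 CPM) and 8 of smallest p (at least 10 CPM) per direction, up to 4 genes of smallest p per list, and all clock core and immediate early genes. Of the 92 called genes, 53 lie outside it. crhb, nr3c1, hspa8, sgk1, irs2a, tefa and csf1ra were also named outside it. Lists were described by counts and medians, without a set test. The fit was tested on simulated data. The simulated reads had no genotype effects and varied independently between genes. They thus say nothing on how the genotype block, or shifts shared by many genes, affect the calls.

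The pairing was by genotype, since numbers are what is compared. Counting error is small at these depths for abundant genes, but not for those of few CPM. Copies made in amplification cannot be told from separate molecules.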

Additional observations from a re-analysis of the deposited data

Results flagged for a closer look

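For the 133 genes looked at (the called genes and those named with values), the highest or lowest of the 4 libraries of a number was set against the other 3. In 23 of 266 groups it stood apart by a larger part of the group's range than Dixon's 95% value for 4 samples, where chance flags about 1 in 20. The 4 libraries of a number are of 4 genotypes and the genes are not independent of each other, so that rate is a rough guide only. The single mutant library was the one that stood apart in most of the 23 groups. The part of its genotype in this was not tested.

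Among number 1 libraries the single mutant was the highest for arl5c (27.1 CPM, the other 3 at 12.5 to 14.5), cebpd (37.6, the others at 12.3 to 14.3), crhbp (73.7, the others at 55.2 to 58.0) and nr1d2a (72.3, the others at 38.7 to 44.3). It was also the highest for prelid3b (56.3, the others at 43.3 to 44.7), rgcc (17.4, the others at 10.2 to 10.6), trib1 (8.27, the others at 6.89 to 6.98), tsc22d3 (199, the others at 139 to 146) and usp2a (87.9, the others at 61.8 to 63.2).

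Among number 3 libraries the single mutant was the highest for klf9 (152 CPM, the others at 60.6 to 71.6), foxg1b (10.0, the others at 5.89 to 6.16), mibp (65.5, the others at 30.3 to 32.2), pfkfb4b (109, the others at 66.3 to 71.0), si:dkey-201c13.2 (23.4, the others at 11.9 to 12.8), trib1 (15.7, the others at 11.2 to 11.8) and usp2b (56.6, the others at 31.9 to 34). It was the lowest for ndel1b (68.1, the others at 80.6 to 82.3).

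The control library stood apart as the highest of number 1 for csf1ra (9.66 CPM, the others at 0.127 to 1.62), which is the gene mutated in the others, and as the lowest of number 3 for arntl1a (67.3, the others at 90.1 to 93.7) and egr2b (7.71, the others at 13.7 to 14.5). The double mutant was the lowest for pik3ip1 in both numbers (173, the others at 182 to 183, and 228, the others at 257 to 261), and in number 3 the highest for btg2 (166, the others at 65.4 to 81.1).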

How the results depend on the processing

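No called gene changed direction under any of the 13 alternatives in which it had a value, and 90 of the 92 had one at a mean of at least 5 CPM. All 92 had the same sign in all 4 pairs, so leaving out a pair could not reverse any of them. The fits without the genotype block, without the mean-variance trend, on all 11 libraries and at a mean of at least 5 CPM return the same differences by design. Another pseudocount cannot change the sign of a pair, so those of 0.5 and 3 CPM could not reverse a call either. A reversal was thus not possible in any of these fits, and that none was seen in them supports nothing. The count of 92 calls (82 higher, 10 lower) was 168 (139 and 29) with DESeq2, 10 (8 and 2) without the mean-variance trend, and 21 (17 and 4) with no replicate block, that is, with the genotype pairing ignored. The cause was not tested. It ran from 32 to 102 with 1 genotype pair left out (30 to 88 higher, 2 to 14 lower): 45 (41 and 4) without the control pair and 32 (30 and 2) without the csf1rb-heterozygous pair, fits with fewer samples. It stayed within 1.5 times with edgeR (82), all 11 libraries (114), pseudocounts of 0.5 and 3 CPM (90 and 103), a mean of at least 5 CPM (99) and median centring (98). At an unadjusted p under 0.05, 1583 genes differed. Of named genes not called, 4 changed sign: crhb (0.00795), csf1ra (-0.0383) and hspa8 (-0.0216) without the single mutant pair, and nr4a1 (-0.20) without the double mutant pair, over ranges of -0.12 to 0.00795, -0.0383 to 0.49, -0.0216 to 0.10 and -0.20 to 0.50 with a pair left out. Of 598 list medians 2 moved by more than the SD of the 4 pair medians of their list. They were those of the bZIP clock output list without the double mutant pair and of pituitary hormones at 5 CPM. Leaving out 1 pair can hardly move a median that far. The fits without block, without trend and on all 11 libraries cannot move it at all. The count of 2 thus says little about how stable the medians were. Depth limits genes near 1 CPM, about 12.3 to 15.7 reads.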

Other observations

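All 39 cytosolic ribosome genes had differences above 0, with a median of 0.12, 16 of them were higher in all 4 pairs (1461 of 16536 genes were), and 0 were called. Its pair medians were 0.04 in control and 0.02 in double mutants, and 0.25 and 0.20 in single and csf1rb-heterozygous mutants. The list summed to 11632 to 13242 CPM in number 1 and 12235 to 14256 in number 3, and to more in the number 2 libraries of single and csf1rb-heterozygous mutants (15912 and 15308). Of 24 nuclear genes of ATP synthase and the respiratory chain, 23 lay above 0 (median 0.12, 0 called). The double mutant pair gave the respiratory chain list a median of -0.13, unlike the other pairs at 0.11 to 0.32.

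Neuropeptide and aminergic genes of feeding and the hypothalamus also leaned upward, 31 of 35 above 0 with a median of 0.16 and 0 called, whereas developmental factors of the hypothalamus and preoptic area leaned downward, 12 of 14 below 0 with a median of -0.23. The radial glia gene id1, a target of BMP signalling, had 138, 122, 130 and 155 CPM in number 1 and 116, 76.5, 100.1 and 119 in number 3 (-0.42, SE 0.08, adjusted p = 0.078). The forebrain gene foxg1b had at most 5.60 CPM in number 1 and at least 5.89 in number 3 (0.88, SE 0.15, adjusted p = 0.0516).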
